A study of Mus musculus with 57 samples.

Results

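The genes described here are 9 genes that mark B and T lymphocytes, read in bulk RNA of whole mouse hearts after doxorubicin (Doxo) with or without nicotinamide mononucleotide (NMN). Membership was set by symbol, with no threshold on a measured value: Cd79a, Cd79b and Ms4a1 for B cells, Cd3e, Cd3d, Cd3g and Lck for T cells, Nkg7 for natural killer and cytotoxic T cells, and Ptprc (CD45) for all leukocytes. They are 9 of 25416 genes in the acute count table and 9 of 54658 in the chronic one. All mice were wild-type C57BL6/J males. In the acute study, mice bought at 9 weeks of age received saline vehicle (Ctrl, n = 14 hearts), 1 intraperitoneal injection of Doxo at 20 mg/kg with vehicle (Doxo, n = 13), or the same Doxo injection with NMN (Doxo-NMN, n = 13). NMN was injected intraperitoneally at 180 mg/kg/day from 5 days before Doxo, and hearts were taken 5 days after Doxo, 2 hours after the last NMN dose, from mice still alive. In the chronic study, mice aged 14 to 16 weeks received PBS (Ctrl, n = 5), 5 injections of Doxo at 4 mg/kg within 2 weeks, 20 mg/kg in all (Doxo, n = 6), or these injections with NMN in the drinking water at 500 mg/kg/day from 5 days before the first one (Doxo-NMN, n = 6), and hearts were taken 60 days after the first injection. The studies also differed in breeder, laboratory and sequencing site, so time and dosing cannot be told apart from these, and the sources used here do not say whether hearts were rinsed of blood.

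CD79A and CD79B are the signalling chains of the B cell receptor, which bind to membrane immunoglobulin and carry its signal to the kinases LYN, BLK and SYK; CD20, encoded by Ms4a1, is a surface protein of B cells that plasma cells lose. On T cells the antigen receptor is carried and read by the CD3 chains, which LCK phosphorylates to recruit ZAP70. Both lymphocyte types sit in the heart in small numbers beside resident macrophages, and many of them circulate in the blood that a heart holds. Doxorubicin is an anthracycline that damages DNA in dividing cells, bone marrow and lymphoid cells included.

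The 3 CD3 genes lie within 40056 bases of chromosome 9. Promoter sequences are shown for them and for Cd79a because their fitted differences below did not share 1 sign. Not all of these differences passed the threshold given below. In GRCm38 (GENCODE annotation), Cd3g (ENSMUSG00000002033) occupies chr9:44969572-44980431 on the minus strand and Cd3d (ENSMUSG00000032094) chr9:44981786-44987339 on the plus strand, so that their starts face away from each other across 1354 bases. Cd3e (ENSMUSG00000032093, minus strand) lies at chr9:44998740-45009627, 11400 bases beyond Cd3d, and Cd79a (ENSMUSG00000003379, plus strand) at chr7:24897381-24902197. The sequences are the RefSeq promoter windows of GRCm38.p6 (starting 250 bases before the RefSeq start), kept only upstream of the GENCODE gene start, 5′ to 3′, and capitals mark matches to an E-box (CAGGTG) or an ETS motif (AGGAAG) on either strand.
Cd79a, chr7:24897247-24897380, plus strand: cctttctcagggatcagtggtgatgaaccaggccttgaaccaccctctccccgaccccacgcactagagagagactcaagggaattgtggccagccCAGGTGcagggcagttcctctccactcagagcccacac
Cd3e, chr9:45009628-45009861, minus strand: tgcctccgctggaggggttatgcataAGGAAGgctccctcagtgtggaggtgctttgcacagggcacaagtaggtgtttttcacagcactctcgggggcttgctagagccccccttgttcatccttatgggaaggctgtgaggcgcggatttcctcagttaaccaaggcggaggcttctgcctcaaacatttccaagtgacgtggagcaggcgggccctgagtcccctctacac
Cd3d, chr9:44981536-44981785, plus strand: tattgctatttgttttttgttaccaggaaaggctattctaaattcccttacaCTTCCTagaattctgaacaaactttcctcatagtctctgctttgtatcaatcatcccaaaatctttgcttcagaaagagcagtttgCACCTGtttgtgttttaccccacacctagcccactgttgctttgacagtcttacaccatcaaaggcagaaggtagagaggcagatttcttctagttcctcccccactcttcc
Cd3g, chr9:44980432-44980681, minus strand: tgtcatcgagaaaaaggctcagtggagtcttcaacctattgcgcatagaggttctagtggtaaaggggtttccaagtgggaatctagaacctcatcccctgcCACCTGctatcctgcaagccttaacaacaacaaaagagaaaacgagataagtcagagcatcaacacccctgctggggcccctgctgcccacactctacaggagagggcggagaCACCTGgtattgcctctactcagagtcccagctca
Cd3g held 2 E-box matches and no ETS match, Cd3e 1 ETS match and no E-box, Cd3d 1 of each, and Cd79a 1 E-box. Windows of 250 bases held an E-box in 17.2% and an ETS motif in 29.5% of 32851 RefSeq promoters, so both are common letters, and the Cd79a and Cd3e windows are shorter (134 and 234 bases).

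Counts of these genes were low, and the acute table had values that stepped mostly by 2. Hearts held 32409622 to 52102850 counts in the acute study and 17769886 to 23862287 in the chronic study, so that 3 counts, the limit used here for detection, stood for 0.0576 to 0.0926 and for 0.126 to 0.169 CPM (counts scaled to the size of the library). Of the 360 values of the 9 genes in acute hearts, 231 reached 3 counts, 120 reached 10 counts and 59 were 0; of the 153 chronic values, 124 reached 3 counts, 60 reached 10 counts and 5 were 0. Among the values above 0 of the 8 genes other than Ptprc, 85.4% were even in the acute table and 51.1% in the chronic one. Low acute counts thus mostly differed by steps of 2, and a limit of 3 counts does not mean the same in both tables. A filter on low counts kept 4 of the 9 genes for the main test in each study (Cd79a, Cd79b, Lck and Ptprc), and the other 5 are given from a fit without that filter. Per kilobase of exon, mean levels in acute Ctrl hearts ran from 0.452 CPM for Ptprc, 0.326 for Cd79b and 0.254 for Cd79a down to 0.0108 for Cd3e; in chronic Ctrl hearts Cd79a was highest (0.942), followed by Cd79b (0.530) and Ptprc (0.379), and Cd3e was again lowest (0.0385). On this measure the antigen receptor chains of B cells lay near Ptprc in acute Ctrl hearts and above it in chronic ones. The CD3 chains lay far under it. Length here is all annotated exon bases of a gene (18313 for Ptprc, 1457 for Cd79a and 4080 for Cd3e), so the ranks depend on the annotation. Without length, mean levels in acute Ctrl hearts were 8.28 CPM for Ptprc, 0.467 for Cd79b, 0.370 for Cd79a and 0.0440 for Cd3e.

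Some hearts stood apart from their group in genes of other blood cells. Acute Doxo replicate 6 had a summed level of 7 red cell genes of 339 CPM, against 1.25 to 3.85 CPM in the other 12 Doxo hearts and 439 to 4319 CPM in Ctrl. Its 11 dendritic cell and major histocompatibility complex (MHC) class II genes summed to 135 CPM, against 10.3 to 34.7 in the other Doxo hearts and 117 to 239 in Ctrl, and its 11 neutrophil genes to 6.53 CPM, against 29 to 623 and 4.63 to 12.1. On all of these lists it lay nearer to Ctrl than to Doxo. Acute Doxo-NMN replicate 12 had an MHC class II sum of 131 CPM against 16.8 to 77.2 in the other Doxo-NMN hearts, and a red cell sum of 0.209 CPM. Chronic Doxo replicate 2 had a sum of 25 B cell genes of 10.7 CPM, where the other 16 chronic hearts had 28.98 to 41.4. Its red cell sum was 16.2 CPM (93.5 to 465 in the others) and its MHC class II sum 26.1 CPM (105 to 217). The main results are given with and without these hearts, and all labels were used as given.

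Acute Doxo hearts held fewer counts of the B cell receptor chains than Ctrl hearts. Cd79b fell by 1.43 on the log2 scale (2.7-fold lower, SE 0.40, edgeR quasi-likelihood test, adjusted p = 0.00204), and Cd79a fell by 1.15 (2.22-fold lower, SE 0.41, adjusted p = 0.0129). Of the 4 genes tested, these 2 passed the threshold of an adjusted p under 0.05 and a change of at least 1.5-fold, and 30.1% of all 14240 genes tested did so, 15.4% of them downwards and 14.7% upwards. In a bulk heart, fewer cells of a type and less RNA per cell cannot be told apart.

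For Cd79b (ENSMUSG00000040592, chr11:106311341-106314762, minus strand), the lowest, median and highest counts were 6, 18 and 33 in Ctrl, 0, 4 and 30 in Doxo, and 2, 10 and 20 in Doxo-NMN. At least 10 counts were present in 13 of 14 Ctrl hearts, 3 of 13 Doxo hearts and 8 of 13 Doxo-NMN hearts. The groups overlapped, but 12 of 13 Doxo hearts were under the Ctrl median and 7 under the lowest Ctrl heart in CPM. Mean levels were 0.467 ± 0.214 CPM (SD, n = 14) in Ctrl, 0.167 ± 0.201 in the 13 Doxo hearts and 0.232 ± 0.102 in the 13 Doxo-NMN hearts.

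For Cd79a, the corresponding counts were 2, 14.5 and 26 in Ctrl, 0, 7 and 24 in Doxo, and 1, 8 and 22 in Doxo-NMN. Mean levels were 0.370 ± 0.206, 0.165 ± 0.164 and 0.183 ± 0.105 CPM. Under the Ctrl median lay 12 of 13 Doxo hearts and 12 of 13 Doxo-NMN hearts, though only 2 and 1 of them were under the lowest Ctrl heart, which held 2 counts.

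Ms4a1 (ENSMUSG00000024673, chr19:11249675-11266241, minus strand, overlapped on the other strand by 4930526L06Rik) had 2, 8 and 14 counts in Ctrl and 0, 2 and 26 in Doxo, and the same low median of 2 counts in Doxo-NMN (0 to 10). No Ctrl heart was at 0, against 6 of 13 in Doxo and 6 of 13 in Doxo-NMN. Over all hearts its difference between Doxo and Ctrl was −0.92 (SE 0.61, adjusted p = 0.202, edgeR without the low-count filter).

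The highest value of all 3 B cell genes among the Doxo hearts belonged to replicate 6, with 24 counts of Cd79a, 30 of Cd79b and 26 of Ms4a1. Its 3 genes summed to 80 counts, while the other 12 Doxo hearts had 2 to 28 (median 9.5) and Ctrl 18 to 60 (median 39). In CPM, 9 of those 12 hearts were under the lowest Ctrl heart. Without replicate 6, edgeR gave −1.52 (adjusted p = 0.00112) for Cd79a, −1.91 (adjusted p = 3.5e-05) for Cd79b and −1.77 (adjusted p = 0.0121, past the threshold) for Ms4a1. With replicate 6 kept, Ms4a1 passed the threshold in the fit with a replicate block and no low-count filter (−1.65, adjusted p = 0.0447). Cd79a and Cd79b passed the threshold in each of the 40 fits that left out 1 heart.

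**Figure D1:**
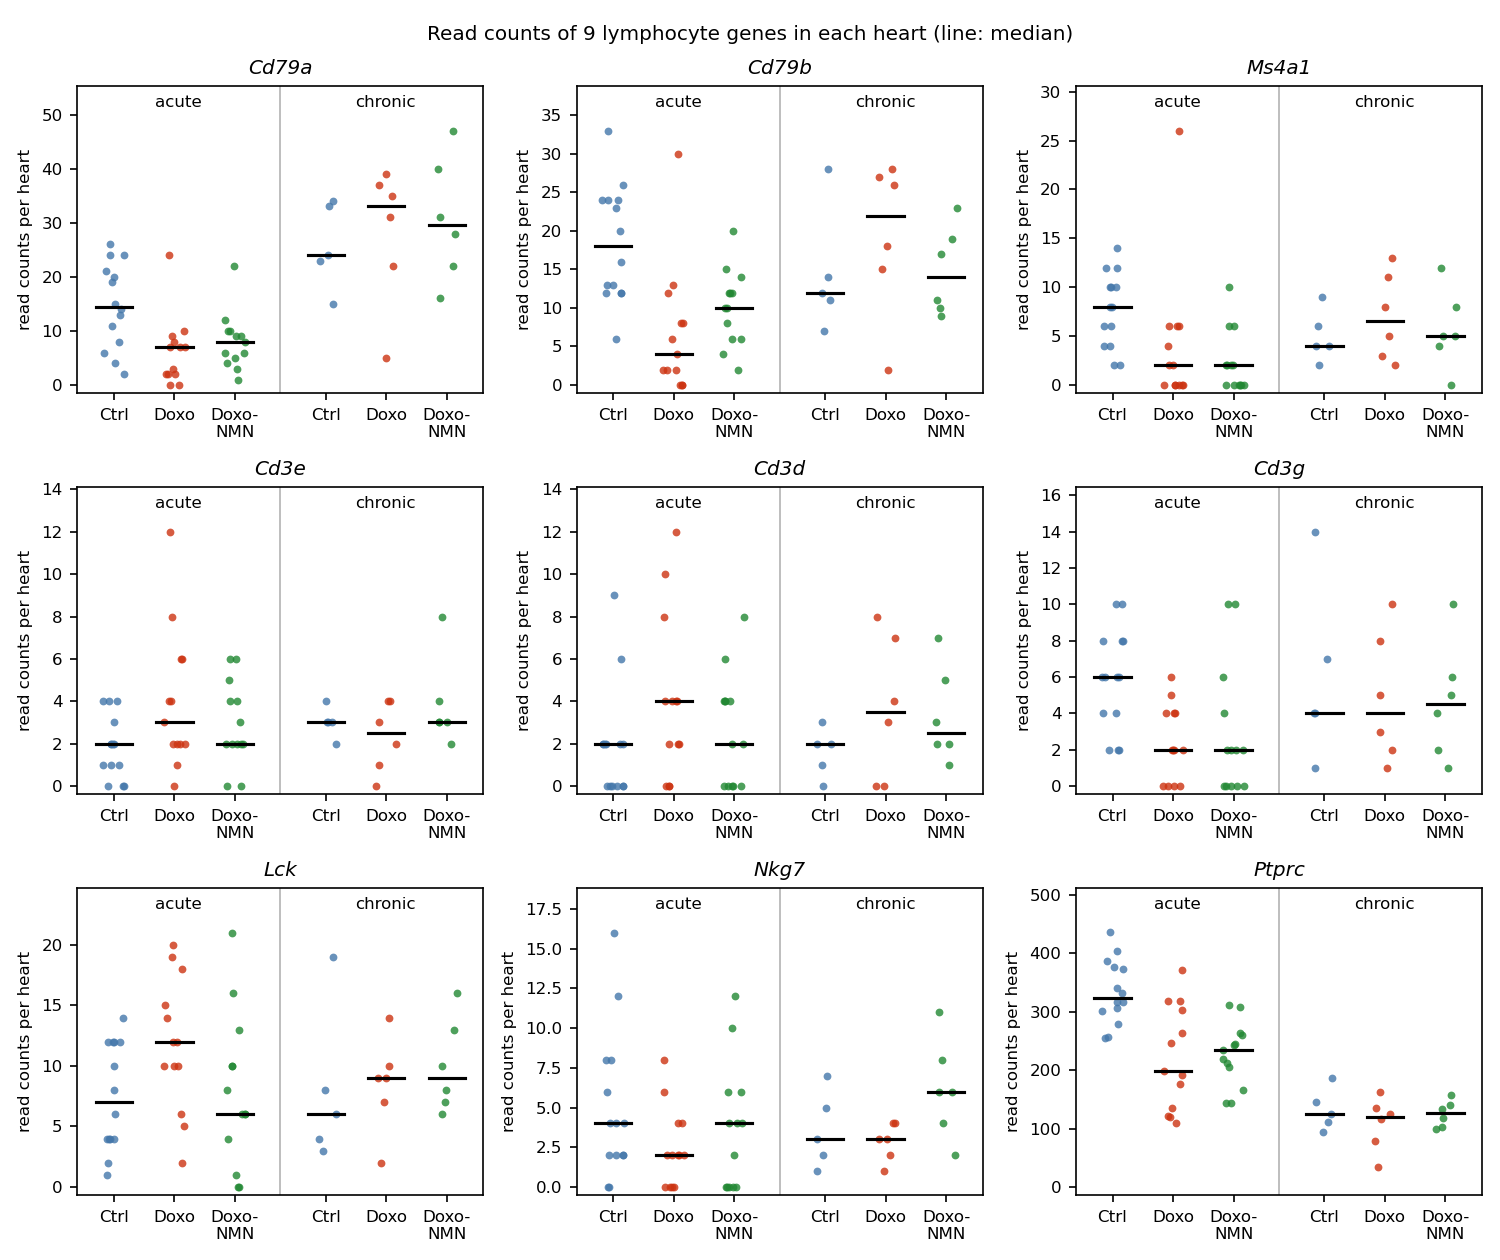
Read counts (vertical axes, linear) of each of the 9 genes in every heart by group, acute hearts on the left and chronic hearts on the right of each panel; points are hearts and lines are group medians. Of the acute Doxo points of Cd79a, Cd79b and Ms4a1, 12 of 13 lie under the Ctrl median in each panel, with the single high Doxo heart, replicate 6, at 24, 30 and 26 counts, while the groups overlap in every panel.

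Acute hearts also differed in Myl4, a myosin light chain gene of the atria: 8 Ctrl, 5 Doxo and 4 Doxo-NMN hearts had at least 100 CPM of it. Among hearts under 100 CPM, Doxo differed from Ctrl by −1.86 for Cd79b (adjusted p = 0.00918) and by −1.28 for Cd79a (adjusted p = 0.0583), and among hearts of at least 100 CPM by −0.99 (adjusted p = 0.113) and −1.23 (adjusted p = 0.0710). Both genes kept their direction in each set of hearts, and of these 4 values 1 passed the threshold.

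With NMN, the B cell genes lay between the other groups or near Doxo. Against Doxo, Cd79b differed by 0.44 (SE 0.42, adjusted p = 0.384), Cd79a by 0.16 (SE 0.43, adjusted p = 0.774) and Ms4a1 by −0.91 (SE 0.67, adjusted p = 0.293), so none passed. In CPM, 11 of 13 Doxo-NMN hearts were above the Doxo median of Cd79b, 8 above that of Cd79a and 5 above that of Ms4a1. Without Doxo replicate 6 the Cd79b difference became 0.92 (adjusted p = 0.0454, past the threshold), and without Doxo-NMN replicate 12 as well it was 0.84 (adjusted p = 0.0777). Against Ctrl, Cd79a and Cd79b both differed by −0.99 in Doxo-NMN (SE 0.40 and 0.39, adjusted p = 0.0619 and 0.0549), and without those 2 hearts by −1.16 (adjusted p = 0.0188) and −1.07 (adjusted p = 0.0210), both past the threshold. Ms4a1 fell by 1.84 against Ctrl (3.57-fold lower, SE 0.64, adjusted p = 0.0400) in the fit without the low-count filter, in which 2.92% of genes were lower, and passed in 26 of 40 fits that left out 1 heart. All 13 Doxo-NMN hearts were under the Ctrl median of Ms4a1 and 8 under its lowest Ctrl heart.

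In Doxo-NMN vs. Doxo, edgeR called 0 of the 4 genes tested, where 17.1% of all genes passed (8.17% upwards, 8.88% downwards). Without the low-count filter it called 0 of the 9, where 3202 of 21799 genes passed. At an unadjusted p under 0.05 the number was also 0 in each of these fits, and DESeq2 called 0. In Doxo-NMN vs. Ctrl 1 of the 4 genes tested passed (Ptprc, below), with 7.11% of all genes called and 3.79% lower.

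Immunoglobulin genes, which B cells and above all plasma cells transcribe, spread more widely over the acute Doxo hearts than the receptor chains did. Ighm, the constant region of IgM, had 142 to 242 counts in Ctrl (median 181) and 70 to 215 in Doxo-NMN (median 114). In Doxo its median was 20, but replicate 1 held 1119 counts and replicate 11 held 2685, with 264 in replicate 6 and 4 to 83 in the other 10 hearts. Igkc, the kappa light chain constant region, followed the same hearts, with 440, 895 and 29 counts in replicates 1, 11 and 6 and 0 to 7 in the others, against 5 to 21 in Ctrl and 2 to 18 in Doxo-NMN.

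The fitted values of both genes were set by those 2 hearts. Over all hearts, Igkc rose by 2.80 in Doxo vs. Ctrl (SE 0.79, adjusted p = 0.00196) and Ighm differed by 0.85 (SE 0.61, adjusted p = 0.214). Without replicates 1 and 11, Igkc fell by 1.60 (adjusted p = 0.00245) and Ighm fell by 1.90 (adjusted p = 4.81e-05). Against Doxo, Doxo-NMN differed by −4.17 for Igkc (adjusted p = 1.99e-04) and −1.53 for Ighm (adjusted p = 0.0401), which rest on the same 2 hearts. Cd79a had 7 and 10 counts and Cd79b 13 and 12 in replicates 1 and 11. Their 3 B cell genes summed to 24 and 28 counts, above those of the other Doxo hearts apart from replicate 6 (80 counts) and within the range of Ctrl.

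**Figure D2:**
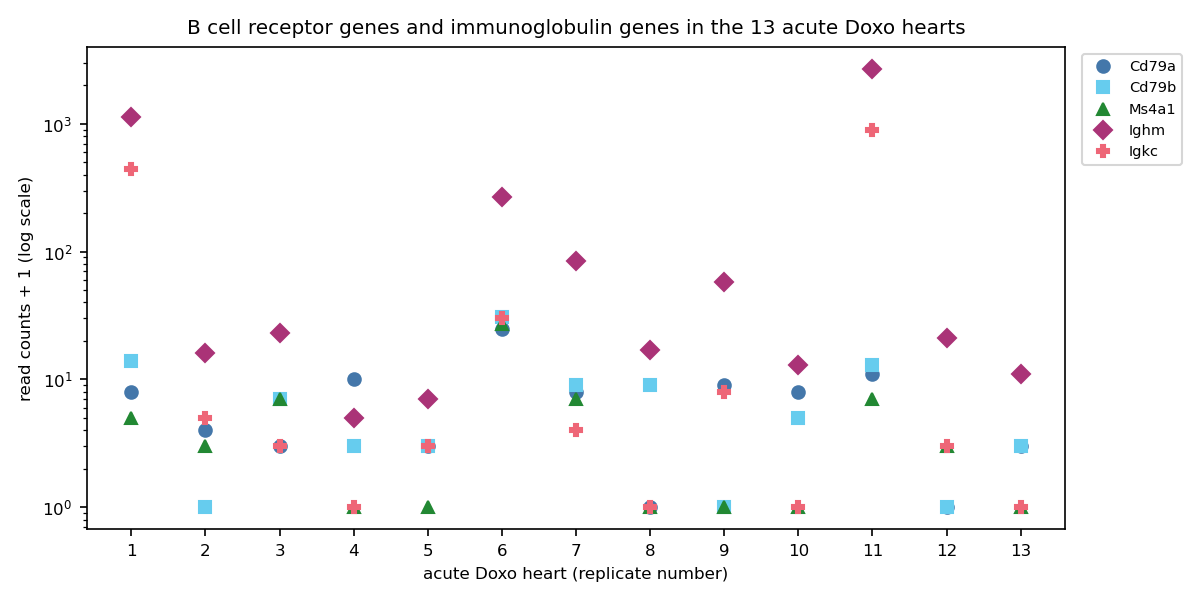
Read counts plus 1 (vertical axis, log scale) of the B cell receptor chains and immunoglobulin genes in each of the 13 acute Doxo hearts by replicate number (horizontal axis). Replicates 1 and 11 stand out for Ighm (1119 and 2685 counts) and Igkc (440 and 895), and replicate 6 for Cd79a, Cd79b and Ms4a1.

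The T cell genes did not share 1 direction after acute Doxo. Cd3e, the CD3 epsilon chain, had 0, 2 and 4 counts (lowest, median, highest) in Ctrl, 0, 3 and 12 in Doxo and 0, 2 and 6 in Doxo-NMN. Levels were 0.0440 ± 0.0341, 0.102 ± 0.0743 and 0.0657 ± 0.0430 CPM, and at least 3 counts were present in 4 of 14, 7 of 13 and 6 of 13 hearts. In the fit without the low-count filter, where 16.8% of genes were higher and 12.1% lower, Cd3e rose by 1.11 in Doxo vs. Ctrl (2.16-fold, SE 0.47, adjusted p = 0.0455). It passed in 23 of the 40 fits that left out 1 heart (adjusted p 0.0224 to 0.0962), and without Doxo replicate 6 it was 1.05 (adjusted p = 0.0631). In edgeR fits without that filter, Cd3e also missed the threshold with acute counts divided by 2 (0.93, adjusted p = 0.0515) and with only these 2 groups (adjusted p = 0.0520). The same held with a replicate block (adjusted p = 0.132), and among hearts under or over 100 CPM of Myl4 (adjusted p = 0.220 and 0.112). Its reads overlap the models Gm48719 on the other strand and Gm48720 on the same strand.

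Cd3g, the CD3 gamma chain, had the opposite sign: 2, 6 and 10 counts in Ctrl, 0, 2 and 6 in Doxo and 0, 2 and 10 in Doxo-NMN. All 14 Ctrl hearts held some counts, while 4 of 13 Doxo and 5 of 13 Doxo-NMN hearts were at 0. The difference between Doxo and Ctrl was −1.22 (SE 0.55, adjusted p = 0.0598). Without Doxo replicate 6 it was −1.34 (adjusted p = 0.0423) and with DESeq2 −1.23 (adjusted p = 0.0389), both past the threshold. Cd3d, the delta chain between these genes on the chromosome, had 0, 2 and 9 counts in Ctrl, 0, 4 and 12 in Doxo and 0, 2 and 8 in Doxo-NMN, with a difference of 1.04 (SE 0.66, adjusted p = 0.180). With all 3 chains near the detection limit, whether Cd3g and Cd3e differ from each other in their change was not tested.

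Lck (ENSMUSG00000000409, chr4:129548344-129573641, minus strand) was read at higher counts than the CD3 genes, with 1, 7 and 14 in Ctrl, 2, 12 and 20 in Doxo and 0, 6 and 21 in Doxo-NMN. Mean levels were 0.182 ± 0.0996, 0.313 ± 0.145 and 0.179 ± 0.1498 CPM. Above the Ctrl median were 10 of 13 Doxo hearts, and 8 of them were above the highest Ctrl heart. The difference was 0.76 (SE 0.38, adjusted p = 0.0779) in Doxo vs. Ctrl. Doxo-NMN hearts differed by −0.78 (SE 0.39, adjusted p = 0.0882) from Doxo and by −0.03 (SE 0.40, adjusted p = 0.968) from Ctrl, and none of these values passed the threshold. Among hearts with under 100 CPM of Myl4 the first was 1.24 (adjusted p = 0.0450, past the threshold). Leaving out Doxo replicate 7 also took both Doxo comparisons past it, at 0.86 against Ctrl (adjusted p = 0.0420) and −0.88 for Doxo-NMN vs. Doxo, and leaving out Doxo-NMN replicate 2 gave −1.03 for the latter (adjusted p = 0.0263).

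In Doxo-NMN vs. Doxo, the CD3 genes had differences of −0.59 for Cd3e (SE 0.47, adjusted p = 0.341), −0.77 for Cd3d (SE 0.66, adjusted p = 0.381) and 0.20 for Cd3g (SE 0.58, adjusted p = 0.820). In Doxo-NMN vs. Ctrl they were 0.52, 0.28 and −1.01 (adjusted p = 0.463, 0.827 and 0.192). At these counts no difference of the CD3 genes from either group could be detected with NMN.

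Nkg7 (ENSMUSG00000004612, chr7:43437073-43438249, plus strand), a granule gene of natural killer and cytotoxic T cells, had 0, 4 and 16 counts in Ctrl, 0, 2 and 8 in Doxo and 0, 4 and 12 in Doxo-NMN. At least 3 counts were present in 8 of 14, 4 of 13 and 7 of 13 hearts. The difference in Doxo vs. Ctrl was −1.01 (SE 0.63, adjusted p = 0.170), and the groups overlapped over almost their whole range.

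Ptprc (ENSMUSG00000026395, chr1:138062861-138175708, minus strand), the phosphatase CD45 on the surface of all leukocytes, was the only gene of the 9 with counts far from the detection limit. It had 255, 324 and 437 counts in Ctrl, 110, 198 and 371 in Doxo and 143, 234 and 312 in Doxo-NMN, or 8.28 ± 1.402, 5.85 ± 2.47 and 5.28 ± 1.25 CPM. In Doxo-NMN vs. Ctrl it fell by 0.65 (1.57-fold lower, SE 0.16, adjusted p = 0.00243), with 13 of 13 hearts under the Ctrl median and 10 under the lowest Ctrl heart, in each of the 40 fits that left out 1 heart. In Doxo vs. Ctrl the difference was −0.50 (SE 0.16, adjusted p = 0.00531), which passed on the adjusted p alone, as 33.3% of all genes did downwards, but not on the fold (1.42). Doxo values spread more, with 7 of 13 hearts under the lowest and 1 above the highest Ctrl heart, and without Doxo replicate 5 the difference was −0.63 (adjusted p = 3.2e-04, past the threshold). Doxo-NMN and Doxo differed by −0.15 (SE 0.16, adjusted p = 0.449).

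**Figure D3:**
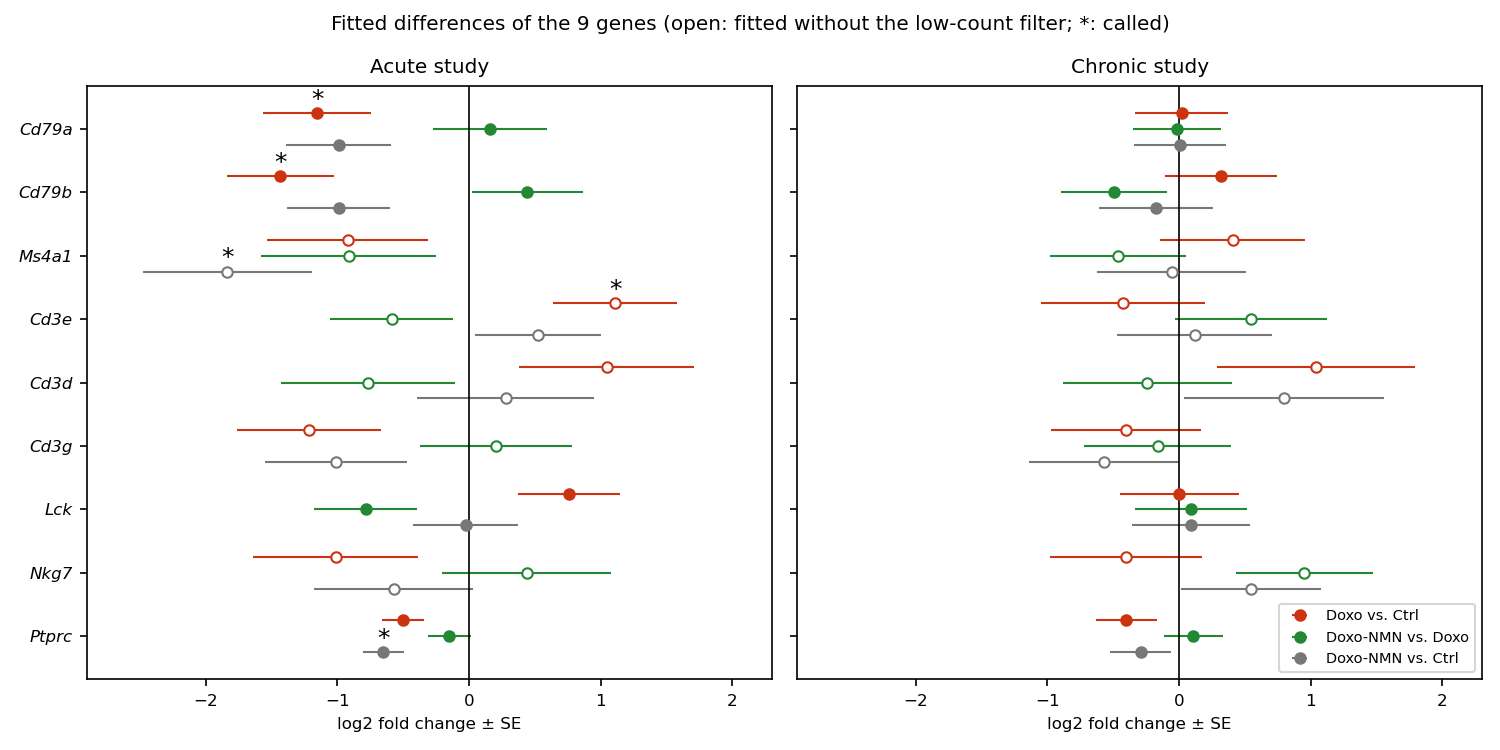
Fitted log2 differences with standard errors (horizontal axis) of the 9 genes in the 3 comparisons of the acute (left) and chronic (right) study; open points come from the fit without the low-count filter and stars mark calls. In the acute study Cd79a, Cd79b and Ptprc have stars on the negative side, Ms4a1 on the negative side in Doxo-NMN vs. Ctrl and Cd3e on the positive side in Doxo vs. Ctrl, and no chronic value has a star.

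Set against Ptprc in the same heart, the summed B cell genes and the summed T cell genes put the acute groups in opposite orders. Per 100 counts of Ptprc, Cd79a, Cd79b and Ms4a1 together had a median of 12.4 counts in Ctrl, 6.67 in Doxo and 8.22 in Doxo-NMN. Cd3e, Cd3d, Cd3g and Lck together had 5.66 in Ctrl, 11.9 in Doxo and 7.98 in Doxo-NMN. Pooled over the hearts of a group, the B cell genes had 12.2, 7.66 and 9.0 counts and the T cell genes 5.13, 10.02 and 7.14, which gave the same orders. Their ranges over hearts overlapped, and these ratios were not tested. In medians, Cd79a and Cd79b had the order of the B cell sum. Ms4a1 did not, with 2.16 in Ctrl, 0.813 in Doxo and 0.641 in Doxo-NMN. The single T cell genes did not all share the order of their sum. Per 100 counts of Ptprc, Lck had medians of 2.11 in Ctrl, 5.30 in Doxo and 3.25 in Doxo-NMN. Cd3e and Cd3d also had higher medians in Doxo than in Ctrl. Cd3g went the other way, with medians of 1.85, 1.26 and 0.769. Since Ptprc itself was lower in both Doxo groups, a part of the T cell ratio comes from its denominator: the 4 T cell genes summed to 7, 17.5 and 25 counts in Ctrl, 10, 20 and 39 in Doxo and 2, 15 and 40 in Doxo-NMN.

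**Figure D4:**
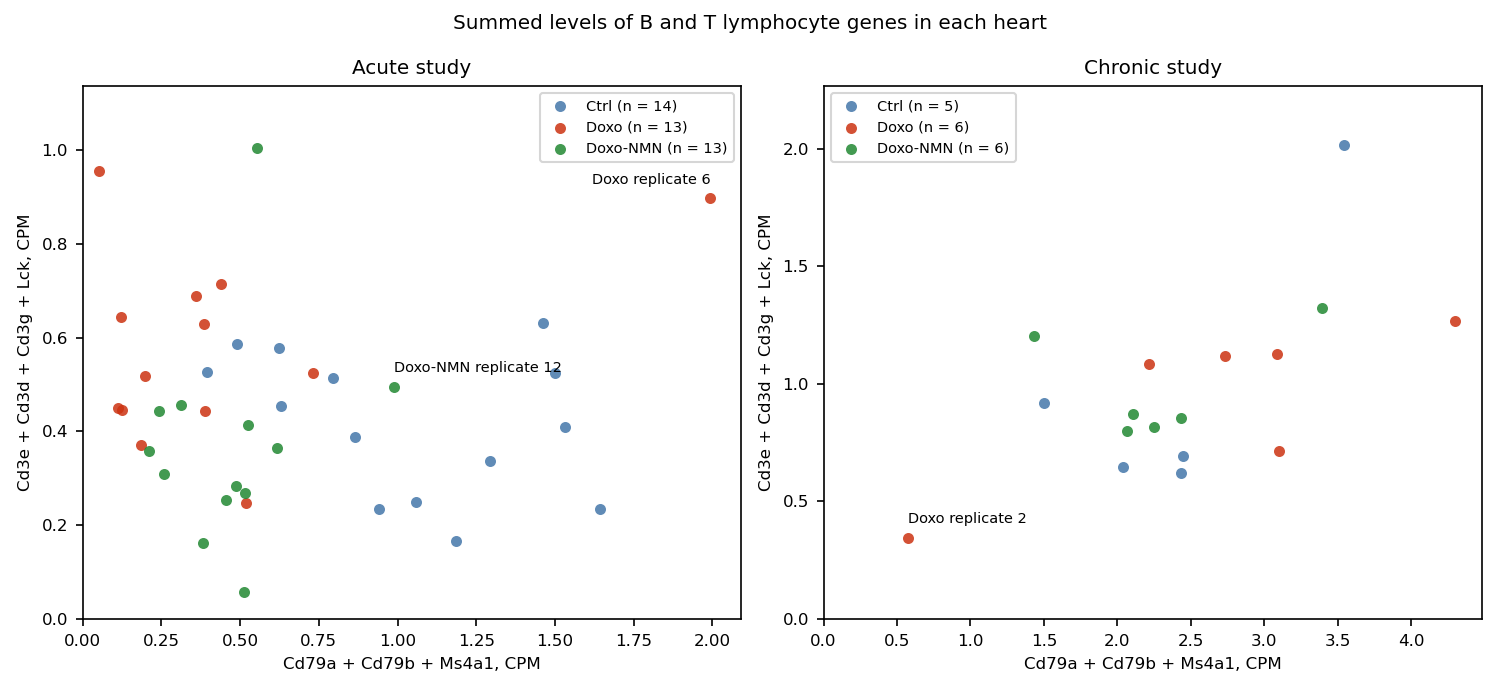
Summed levels in CPM of Cd79a, Cd79b and Ms4a1 (horizontal axis) against those of Cd3e, Cd3d, Cd3g and Lck (vertical axis), 1 point per heart coloured by group, acute study left and chronic study right, with linear axes. Most acute Doxo hearts lie to the left of the Ctrl hearts at similar or higher T cell values, with Doxo replicate 6 (80 counts of the B cell genes) at the far right, and chronic Doxo replicate 2 lies at the lower left.

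Longer lists of leukocyte genes, which also hold the 9 genes, were read in the same fits. Of 25 B cell genes, 11 were tested in acute hearts, and in Doxo vs. Ctrl 7 fell and 2 rose, where 15.4% of all genes tested fell and 14.7% rose. The median difference was −0.87, against −0.00157 over all genes tested. Cd79a and Cd79b, given above, are counted among the 7 that fell. Of the 9 other genes of the list that were tested, 5 fell and 2 rose, with a median difference of −0.81. Blnk, the adaptor between SYK and its B cell targets, fell by 1.17 (SE 0.20, adjusted p = 2.77e-06), and the receptor kinase Blk fell by 0.87 (SE 0.20, adjusted p = 2.70e-04). Cd83, which activated B cells and dendritic cells both make, fell by 0.81 (SE 0.21, adjusted p = 7.57e-04). Bank1 and Ighd, named after their values were seen, fell by 1.88 and 1.51: Bank1, a B cell scaffold protein, had median counts of 44.5 in Ctrl, 6 in Doxo and 34 in Doxo-NMN, and Ighd, the IgD heavy chain of mature naive B cells, had 14.5, 0 and 9. The genes that rose were Igkc and Fcer2a (CD23), at 0.87. Without Doxo replicates 1 and 11, 12 genes of the list were tested, of which 10 fell and 1 rose. Without Doxo replicate 6, 11 were tested, of which 7 fell and 2 rose. DESeq2, which tested more of the list, called 10 lower and 2 higher. Of the 18840 genes it tested in all, it called 2401 lower and 2935 higher.

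The direction of the T cell list depended on the gene. Of 31 T cell genes, 14 were tested, of which 3 fell and 1 rose in Doxo vs. Ctrl, with a median difference of 0.23. Over all genes tested 30.1% were called, near the share of the T cell genes. Bcl11b, a transcription factor of the T lineage, fell by 2.01 (SE 0.41, adjusted p = 4.79e-05), with median counts of 77 in Ctrl, 8 in Doxo and 51 in Doxo-NMN. Trac, the constant region of the T cell receptor alpha chain, fell by 1.40 (median counts 40, 13 and 18), and Cd4, the coreceptor of helper T cells, fell by 0.89 (27, 12 and 16), both named after their values were seen. Cd247, the zeta chain of the T cell receptor complex, rose by 1.20 (SE 0.30, adjusted p = 6.30e-04; median counts 14.5, 23 and 11). Genes of 1 receptor complex therefore had opposite signs in the same hearts, with Trac and Cd3g lower and Cd247, Cd3e and Cd3d higher. Of the CD3 chains only Cd3e passed with edgeR over all hearts, and it missed the threshold in several alternatives given above. The costimulatory receptor Cd28 differed by 0.21 (adjusted p = 0.122) and its antagonist Ctla4 by −0.44 (adjusted p = 0.0295, under 1.5-fold). DESeq2 called 6 genes of the list lower and 3 higher, where it called 2401 of 18840 genes lower and 2935 higher.

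Natural killer and cytotoxic genes were mostly too low to test. Only 2 of 15 passed the low-count filter, and edgeR called neither: Il2rb, a receptor chain for interleukins 2 and 15, differed by 0.28 (adjusted p = 0.420) and the chemokine Ccl5 by 0.52 (adjusted p = 0.347). Ctsw, a cathepsin of cytotoxic cells removed by that filter, had −1.31 in the fit without it (adjusted p = 0.00833). At an unadjusted p under 0.05 the number was 0 of 2. DESeq2, which tested more of the list, called Ctsw, Eomes and Ncr1, where it called 5336 of 18840 genes.

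All 15 pan-leukocyte genes were tested, of which 6 fell and 1 rose (median difference −0.35; 15.4% and 14.7% over all genes). Arhgap45 fell by 0.69 (SE 0.13, adjusted p = 1.12e-05) and Cytip, an adaptor of leukocyte adhesion, rose by 0.79 (SE 0.22, adjusted p = 0.00216), while the lysosomal Laptm5 differed by −0.22 (adjusted p = 0.0680). Of 25 antigen receptor signalling genes, which many other cell types also use, 24 were tested, of which 7 fell and 2 rose (median difference −0.12), where 30.1% of all genes were called. The SRC family kinase Fyn fell by 0.64 (SE 0.07, adjusted p = 3.88e-10) and Cblb, a ubiquitin ligase that dampens receptor signals, rose by 1.54 (SE 0.18, adjusted p = 4.84e-09). Grb2 and Plcg1 differed by −0.28 (adjusted p = 2.20e-07, under 1.5-fold) and −0.02 (adjusted p = 0.816).

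Several of these genes differed between the Doxo groups, where 8.17% of all genes were higher and 8.88% lower with NMN. In Doxo-NMN vs. Doxo, Bank1 (1.37) and Blk (0.69) were higher and Igkc, Ighm and Fcer2a (−1.53) lower among the B cell genes, and Bcl11b (1.51) was higher and Cd247 (−1.55) and Tcf7 (−0.66) lower among the T cell genes. Without Doxo replicate 6, 5 B cell genes were higher and 3 lower, and without Doxo replicates 1 and 11, 3 were higher and 1 lower. The T cell counts were 1 higher and 2 lower without Doxo replicate 6. Cd247 and Fcer2a, which had risen in Doxo vs. Ctrl, and Bank1, Blk and Bcl11b, which had fallen, thus had the opposite sign here. Both comparisons share the Doxo hearts, which fixes opposite signs in part. The other lists held Il2rb (−0.73), Cytip (−0.90), Lcp2 (−0.92) and Cblb (−1.27) as lower and Cd48 (0.60) and Nfatc2 (1.10) as higher. Of the 40 fits that left out 1 heart, Il2rb passed in 23, Ighm in 30, Cd48 in 30 and Tcf7 in 39, and the other genes of this comparison in 40. In Doxo-NMN vs. Ctrl, Cd83 (−1.10), Blnk (−0.69), Ikzf1 (−0.81), Ptprc, Rasgrp1 (−1.44) and Lcp2 (−0.93) were lower, and 0 of the 65 genes tested were higher, with 3 higher at an unadjusted p under 0.05 and 1 with DESeq2. Of the B cell genes, 2 were lower, against 3.79% of all genes, and 4 without Doxo replicate 6. Of the 14 T cell genes tested 0 passed in either direction, with 2 at an unadjusted p under 0.05. DESeq2 called Cd2 and Trbc2, both lower, where it called 626 of 18418 genes lower and 730 higher. Of the genes in this paragraph, Bank1, Fcer2a, Tcf7, Lcp2, Cd48, Nfatc2, Ikzf1 and Rasgrp1 were named after their values were seen.

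**Figure D5:**
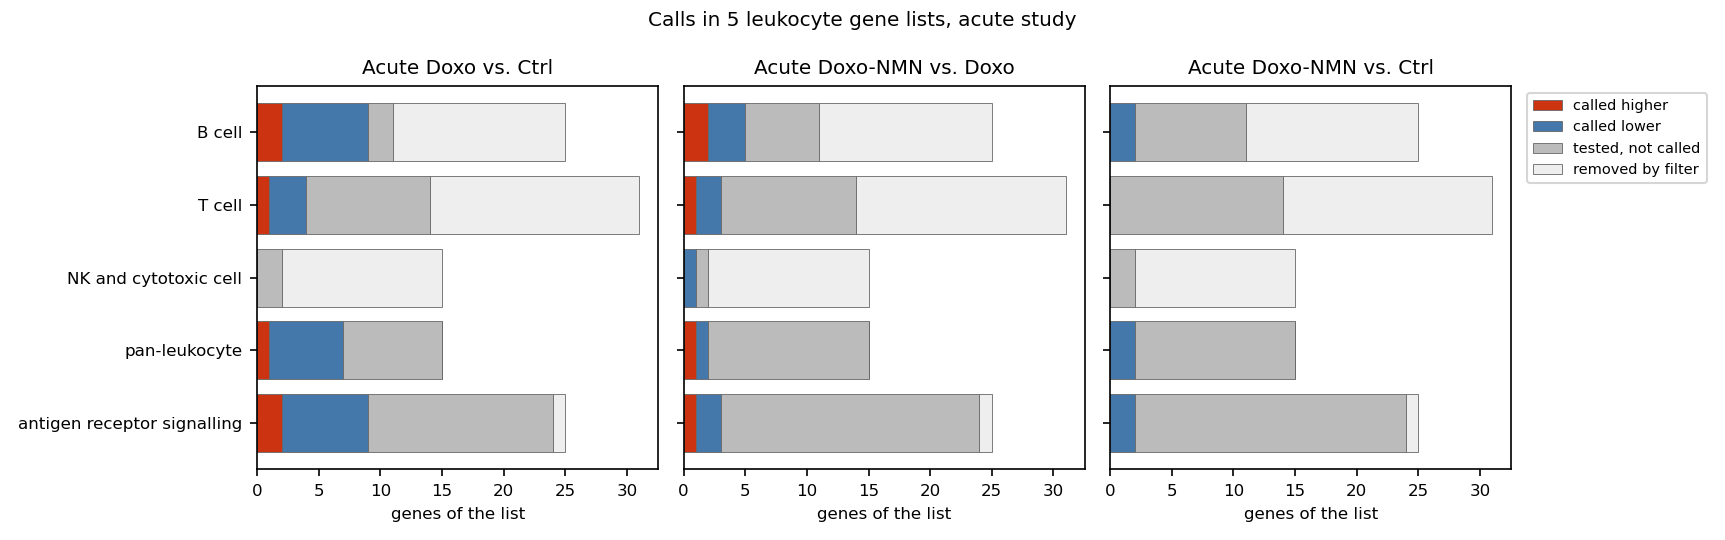
Number of genes (horizontal axes) of 5 leukocyte lists that were called higher, called lower, tested and not called, or removed by the low-count filter in the 3 acute comparisons, 1 panel each. In Doxo vs. Ctrl 7 of 11 tested B cell genes (Cd79a and Cd79b included) were lower and 2 higher, against 3 and 1 of 14 tested T cell genes.

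Genes of other blood cells moved with these groups, and their part in the values above was not tested. Red cell genes summed to medians of 1116 CPM in Ctrl, 2.39 in Doxo and 1.42 in Doxo-NMN, and all 7 fell in both Doxo groups. Neutrophil genes summed to 6.92, 111 and 21.8 CPM, with all 9 tested higher in Doxo vs. Ctrl. MHC class II and dendritic cell genes summed to 178, 16.4 and 43.7 CPM, and macrophage genes to 423, 338 and 346 CPM. Of 10 thymocyte genes, which sum to 72.8, 106 and 71.1 CPM, Rag2 was at 0 in every Ctrl heart, and of 9 lymph node stroma genes (126, 122 and 121 CPM) Glycam1 was at 0 in every Ctrl and Doxo-NMN heart.

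Ranked over the 40 acute hearts by Spearman correlation of levels, the genes most like Cd79a among 14236 were Htra2 (0.74), Cd4 (0.70) and Cox7a1 (0.69), and those most like Cd3e were Phkg2 (0.64), Usp48 (0.59) and Top3a (0.57). Htra2, a mitochondrial protease, and Cox7a1, a respiratory chain subunit of muscle, had medians of 13.7 and 431 CPM in Ctrl and 10.9 and 219 in Doxo. The points share their treatment groups and libraries, and at so few counts per heart a rank may rest on group differences alone.

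In the chronic study no difference was detected in any of the 9 genes. Counts of Cd79a were 33, 15, 24, 23 and 34 in Ctrl, 5 to 39 in Doxo (median 33) and 16 to 47 in Doxo-NMN (median 29.5), with levels of 1.37 ± 0.489 (n = 5), 1.38 ± 0.656 (n = 6) and 1.36 ± 0.438 CPM (n = 6). Cd79b had 28, 12, 11, 14 and 7 counts in Ctrl, 2 to 28 in Doxo (median 22) and 9 to 23 in Doxo-NMN (median 14), or 0.759 ± 0.446, 0.937 ± 0.481 and 0.668 ± 0.247 CPM. The lowest Doxo value of both, 5 and 2 counts, belonged to replicate 2, the heart described above, which also had the lowest Ptprc count (35). Ptprc had 186, 146, 125, 112 and 95 counts in Ctrl, a median of 120.5 in Doxo and 126.5 in Doxo-NMN. Groups overlapped for each of these genes.

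The other chronic counts were also low, with a Ctrl median of 4 for Ms4a1 against 8 in acute hearts. Acute values mostly stepped by 2, so counts and library sizes do not compare directly between the tables. In CPM, Ctrl levels of these genes were higher in the chronic study. Mean Ctrl levels were 0.157 CPM for Cd3e and 0.424 for Lck, against 0.0440 and 0.182 in acute Ctrl hearts. Ms4a1 had 2 to 9 counts in Ctrl, 2 to 13 in Doxo and 0 to 12 in Doxo-NMN, and Cd3e 2 to 4, 0 to 4 and 2 to 8. Lck had 19, 6, 4, 8 and 3 counts in Ctrl and a median of 9 in both Doxo and Doxo-NMN, and Nkg7 had medians of 3, 3 and 6 counts. Cd3d had medians of 2, 3.5 and 2.5 counts and Cd3g of 4, 4 and 4.5.

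With edgeR, 0 of the 4 genes tested passed an adjusted p of 0.05 in any comparison, where 0.0602% of all 14960 genes did so between Doxo and Ctrl, 0.0% between Doxo-NMN and Doxo, and 0.0401% between Doxo-NMN and Ctrl. At an unadjusted p under 0.05 the number was 0 in each comparison, with and without the low-count filter, and DESeq2 called 0. Fitted differences of the 9 genes without that filter lay between −0.43 and 1.04 in Doxo against Ctrl, between −0.50 and 0.95 in Doxo-NMN against Doxo and between −0.57 and 0.80 in Doxo-NMN against Ctrl. The lowest adjusted p-values were 0.676, 0.754 and 0.793. Without Doxo replicate 2, edgeR called 0 of the 9 genes in each comparison, with 1 at an unadjusted p under 0.05 (Cd79b in Doxo-NMN against Doxo, −0.72, p = 0.0330 in the same fit across all genes), and mean levels in the other 5 Doxo hearts were 1.60 ± 0.424 CPM for Cd79a and 1.10 ± 0.294 CPM for Cd79b. Of the 66 genes tested from the 5 leukocyte lists (16 B cell, 10 T cell, 4 natural killer and cytotoxic, 15 pan-leukocyte and 22 signalling genes, 1 of them in more than 1 list), edgeR and DESeq2 called 0 in each comparison. At an unadjusted p under 0.05, 5 differed between Doxo and Ctrl, 1 between Doxo-NMN and Doxo and 1 between Doxo-NMN and Ctrl. Per 100 counts of Ptprc, the B cell genes had medians of 34.9 in Ctrl, 43.6 in Doxo and 39.2 in Doxo-NMN, and the T cell genes 11.6, 17.1 and 18.2.

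A fit over both studies tested whether the acute and the chronic effects differed, for 7 of the 9 genes. The Doxo effect on Cd79b was lower by 1.74 on the log2 scale in the acute than in the chronic study (SE 0.69, adjusted p = 0.0586), which missed the threshold. That on Cd79a had a difference of −1.17 (SE 0.65, adjusted p = 0.184) and that on Lck one of 0.76 (SE 0.69, adjusted p = 0.434). Without acute Doxo replicate 6 the Cd79b value was −2.23 (adjusted p = 0.00635), and DESeq2 gave −1.75 over all hearts (adjusted p = 0.0369), both past it. Without chronic Doxo replicate 2 it was −1.97 (adjusted p = 0.0253). Without both hearts, Cd79a (−1.75, adjusted p = 0.0217), Cd79b (−2.46, adjusted p = 0.00174) and Ms4a1 (−2.27, adjusted p = 0.0456) passed. With edgeR over all hearts, 0 of the 7 genes passed where 23.6% of all genes did, 1 had an unadjusted p under 0.05 (Cd79b), and DESeq2 called 1. For the NMN effect edgeR called 0 of 7, where 6.09% of all genes passed, none had an unadjusted p under 0.05, and DESeq2 called 0. The difference for Cd79b was 0.94 (SE 0.68, adjusted p = 0.382), and 1.65 without both of those hearts (adjusted p = 0.0409, past the threshold).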

How the data were processed

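Poly(A) RNA of 57 hearts was sequenced by the authors in single reads of 150 bases. They aligned reads to mm10 with STAR (2.7.3a in the submitters' processing notes) and counted them per gene with featureCounts 2.0.0, and the deposited tables hold raw counts, 1 table per study. No strand setting is given in the sources used here. Counts were tested in each study with edgeR 4.0.16 in R 4.3.3 (filterByExpr, TMM, quasi-likelihood F test over the 3 groups, Benjamini-Hochberg over all genes tested). Acute calls needed an adjusted p under 0.05 and 1.5-fold, chronic and between-study calls an adjusted p under 0.05. Genes removed by the filter were fitted without it. DESeq2 1.42.0 and other settings were alternatives. Only the edgeR fit with its main settings is stated here to have been tried on simulated data. Levels in CPM use TMM library sizes, and 3 counts were taken as detected, for counting error only. Hearts are taken as separate animals, and p-values measure the spread between these hearts.

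The 9 genes and all lists were chosen with earlier results of these data known. Besides the 9, the text names per list the 3 genes with the highest mean level in acute Ctrl and the smallest adjusted p in each direction if called, any list gene called in the chronic study, the 3 genes most like Cd79a and Cd3e, and those marked as named after their values were seen. Fits without the low-count filter for each alternative, halved counts without it and fits without pairs of hearts or, over both studies, without chronic Doxo replicate 2 were added after the data were seen. Replicate numbers did not pair the hearts. No deposited column was left unused. Python 3.11.15, numpy 2.4.6, pandas 2.3.3, scipy 1.17.1 and matplotlib 3.10.9 were used. Coordinates are from a GENCODE annotation of GRCm38 matched by symbol (the annotation behind the counts is not given in the sources used here), and 7 of the 9 genes had a RefSeq promoter entry.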

Additional observations from a re-analysis of the deposited data

Results flagged for a closer look

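In the chronic Doxo-NMN group, 1 heart stood far from the other 5 for Cd3e. Replicate 5 had 0.342 CPM (8 counts), while the others had 0.0924 to 0.165 CPM. It was the only one of 27 combinations of gene and chronic group in which the gap of the highest or lowest heart to its neighbour passed Dixon's critical value, and chance alone gives such a gap in about 1 in 20 groups. Acute groups hold more hearts than that test covers.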

How the results depend on the processing

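The number of the 9 genes called in acute Doxo vs. Ctrl was 2 of the 4 tested. It was 4 with DESeq2, which called 5336 of 18840 genes, and 2 to 3 when 1 heart was left out. It was 0 when genes needed 10 counts in every heart or acute counts were divided by 2, settings under which only Ptprc was tested, and 0 among hearts with at least 100 CPM of Myl4. In Doxo-NMN vs. Doxo, 0 became 0 to 1 when 1 heart was left out. In Doxo-NMN vs. Ctrl, 1 became 3 with DESeq2, which called 1356 of 18418 genes. It became 2 without the low-count filter, 3 with only these 2 groups in the fit and 0 with at least 100 CPM of Myl4. Without Doxo replicate 6 and Doxo-NMN replicate 12 it was 3, and 1 to 3 when 1 heart was left out. The difference between studies in the Doxo effect, with 0 calls, had 1 with acute counts divided by 2, 1 with DESeq2, 1 without Doxo replicate 6, 1 without chronic Doxo replicate 2 and 3 without both, and that in the NMN effect, with 0, had 1 without both. With 10 in place of 3 counts as the limit, 120 acute and 60 chronic values counted as detected. For the acute values of the 9 genes, alternatives that kept all hearts or split them by Myl4 left 226 values with their direction and side of the threshold, while 11 lost the call, 11 gained it and 9 changed sign. In fits without 1 or 2 hearts these numbers were 1061, 33, 25 and 15.

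Values that changed sign in Doxo vs. Ctrl were Cd3d (−0.14 with at least 100 CPM of Myl4), Plcg1 (0.17 in the same hearts, and −0.064 to 0.0037 when 1 heart was left out), Ccl5 (−0.19 to 0.64 when 1 was left out), Ighm (−0.65 with DESeq2, −1.51 with a replicate block, −1.86 under 100 CPM of Myl4, −1.90 without Doxo replicates 1 and 11, and −0.65 to 0.96 when 1 was left out) and Igkc (−0.37 with the block, −1.32 under 100 CPM, −1.60 without Doxo replicates 1 and 11, and 1.15 to 2.92 when 1 was left out). In Doxo-NMN vs. Doxo they were Cd79a (−0.018 under 100 CPM, −0.011 to 0.53 when 1 was left out), Cd79b (−0.017), Cd3d (0.21) and Ptprc (0.091) with at least 100 CPM, and Cd3g (−0.093 with the block, −0.16 to 0.39 when 1 was left out). In Doxo-NMN vs. Ctrl they were Lck (0.26 under and 0.069 with at least 100 CPM, −0.27 to 0.092 when 1 was left out) and Nkg7 (0.15 with at least 100 CPM). The cause of these changes was not tested, and smaller sets of hearts hold fewer samples.

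Hearts with the same replicate number did not deviate together: correlations of acute pairs were −0.62 to 0.58 (median 0.06), with 5 of 78 best with their own number, and of chronic pairs −0.25 to 0.41 (median 0.02), with 4 of 32. With the replicate block, Cd79a had −1.26 (adjusted p = 0.0210) and Cd79b −1.68 in acute Doxo vs. Ctrl. Depth limits the CD3 genes, Ms4a1 and Nkg7 most, as many hearts held under 3 counts.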
